A study of Mus musculus with 24 samples.

Results

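Expression of 9 genes of purinergic and adenosine signalling (P2rx4, P2rx7, P2ry2, P2ry6, Panx1, Entpd1, Adora2a, Adora2b and Ada) was followed in bone marrow-derived macrophages (BMDMs) stimulated with lipopolysaccharide (LPS). The genes were chosen by symbol: a row of the count table belonged to the set when its Ensembl identifier, without the version number, carried one of these symbols in GENCODE M21. This gave 9 of 22165 genes, and all 9 were among the 11878 genes that passed the filter on low counts.

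Cells under stress release ATP, in part through pannexin 1 channels (Panx1). Extracellular ATP opens the ion channels P2X4 (P2rx4) and P2X7 (P2rx7), and nucleotides also act on G protein-coupled receptors, among them P2Y2 (P2ry2; ATP and UTP) and P2Y6 (P2ry6; UDP). In macrophages primed with LPS, ATP acting on P2X7 lets potassium leave the cell and is a widely used trigger of the NLRP3 inflammasome. CD39 (Entpd1) on the cell surface removes phosphates from ATP and ADP, and the AMP it leaves is converted to adenosine by CD73. Adenosine raises cyclic AMP through the receptors encoded by Adora2a and Adora2b, which restrains the production of inflammatory cytokines, and adenosine deaminase (Ada) converts adenosine to inosine.

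BMDMs came from WT C57BL/6N mice and from C57BL/6N mice that lack Irg1 (Acod1, the enzyme that makes itaconate) in all cells, at 8 to 20 weeks of age, and were grown for 7 days in M-CSF at 20 ng/ml. Cells of each genotype were left without LPS (Unstim.), received LPS at 100 ng/ml for 3 h (LPS 3h), received it for 24 h and were harvested directly (LPS 24h), or received it for 24 h, rested for 1 h in fresh medium and were given LPS again for 3 h (LPS 24h->LPS 3h, tolerized). The LPS 3h cultures had the same change of medium without the first LPS. No group had 24 h of LPS and the rest without the second LPS. Between LPS 24h and the tolerized state, the second LPS, the change of medium and the added time therefore cannot be told apart. With 3 cultures in each of the 8 groups there were 24 libraries, and whether the cultures of a group came from separate mice is not given in the sources used here, so p-values measure the spread between cultures.

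Gene counts summed to 3927378 reads in the shallowest library and 20430359 in the deepest (median 11539056). Acod1 checked the labels: it was at 3794 to 28063 normalized CPM (reads scaled to the size of the library) in WT libraries with LPS, at 1.58 to 26.4 in Irg1-/- libraries with LPS and at 5.82 to 11.9 in Unstim. libraries of both genotypes. The summed level of 8 macrophage markers was 3319 to 9833 CPM, led by Lyz2. Summed B cell, T or NK cell, mast cell and erythroid markers stayed at or under 2.45 CPM, dendritic cell markers at or under 11.1 CPM, and neutrophil and fibroblast markers are given beside Entpd1. The labels give each library 1 of 4 prefixes beside its barcode, taken here as its pool of barcoded cDNA: the 6 Unstim. libraries were in pool 4, WT cultures with LPS were spread over pools 1, 2 and 4, and no Irg1-/- culture with LPS was in pool 4. The LPS comparisons with Unstim. in Irg1-/- cells therefore have no within-pool value, and there treatment and pool cannot be told apart except through a fit with the pool as a term.

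All 9 genes are protein-coding, and their positions are those of GENCODE M21 on GRCm38. P2rx7 (chr5:122643911-122691432) and P2rx4 (chr5:122707544-122729738) lie on the plus strand of chromosome 5, 16112 bases apart. P2ry6 (chr7:100937630-100974649) and P2ry2 (chr7:100996568-101012866) lie on the minus strand of chromosome 7, 21919 bases apart. Panx1 is at chr9:15002128-15045478 (minus), Entpd1 at chr19:40612366-40741602 (plus), Adora2a at chr10:75316877-75334784 (plus), Adora2b at chr11:62248984-62266453 (plus) and Ada at chr2:163726584-163750239 (minus). None of them overlapped another gene of the count table. Reads came from the 3′ ends of polyadenylated transcripts, so splice forms of a gene were not separated.

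Adora2b had the highest ratio between its highest and its lowest group mean among the genes with a measured level in all 8 groups, and P2rx7 had its lowest group means where LPS had been added 3 h before harvest. The promoter window of Adora2b and that of the first annotated start of P2rx7 are shown, as RefSeq gives them on GRCm38.p6 (250 bases before to 50 bases after the start). Capitals mark GC boxes (GGGCGG, or CCGCCC for the other strand) and AP-1 sites (TGANTCA); both strands were searched for these, for the cyclic AMP response element TGACGTCA and for the NF-kappaB consensus, and no 2 matches overlapped in these windows.
Adora2b, chr11:62248734-62249033, plus strand: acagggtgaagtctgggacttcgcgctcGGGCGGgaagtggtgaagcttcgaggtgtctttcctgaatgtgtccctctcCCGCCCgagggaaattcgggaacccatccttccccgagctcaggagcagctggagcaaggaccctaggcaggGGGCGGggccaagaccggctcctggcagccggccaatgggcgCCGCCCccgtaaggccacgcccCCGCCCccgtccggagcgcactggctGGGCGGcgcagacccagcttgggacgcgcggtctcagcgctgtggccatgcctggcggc
P2rx7, chr5:122643677-122643976, plus strand: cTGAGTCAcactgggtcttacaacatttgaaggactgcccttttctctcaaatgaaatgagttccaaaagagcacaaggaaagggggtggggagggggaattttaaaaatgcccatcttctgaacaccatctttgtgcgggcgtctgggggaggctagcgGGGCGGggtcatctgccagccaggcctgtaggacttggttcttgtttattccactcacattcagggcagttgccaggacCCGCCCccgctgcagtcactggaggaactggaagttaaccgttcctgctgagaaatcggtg
The Adora2b window held 6 GC boxes and 70.0% G or C, against a median of 52.7% over all windows. In the P2rx7 window shown there were 2 GC boxes and 1 AP-1 site, which begins 249 bases before the start. A second P2rx7 window (chr5:122650133-122650432, 51.7% G or C) held none of the motifs. Of 32851 windows in the table, 35.7% held a GC box, 7.81% an AP-1 site, 8.46% the NF-kappaB consensus and 1.79% the cyclic AMP response element. Windows were found for 7 of the 9 genes (10 windows), and none for P2ry6 or Adora2a. Among the 10 windows the NF-kappaB consensus was found in that of Ada alone, the cyclic AMP response element in none, and the windows of Panx1 and Entpd1 held no match. A match is a description of letters, and no match says only that they are absent from these 300 bases.

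Over the 8 treatment comparisons (4 in each genotype), 24 of the 72 tests of the 9 genes passed an adjusted p of 0.05, 13 of them higher and 11 lower (quasi-likelihood test of edgeR, Benjamini-Hochberg adjusted over all genes tested, used for each adjusted p below unless another tool is named). After LPS 3h, 2 of the 9 rose and 2 fell in WT cells, where 15.8% of all genes tested rose and 16.3% fell (32% in either direction), and 3 rose and 3 fell in Irg1-/- cells (17% and 18.9% of all genes, 35.9% together). At LPS 24h, 2 were above Unstim. and 1 below in WT (9.25% and 6.98%, 16.2% together), against 0 and 1 in Irg1-/- (7.31% and 6.38%, 13.7% together). From LPS 24h to the tolerized state, 1 rose and 0 fell in WT (2.46% and 1.53%, 3.99% together), and 2 rose and 2 fell in Irg1-/- (3.44% and 1.7%, 5.14% together). Tolerized cells had 1 higher and 1 lower than LPS 3h cells in WT (12.4% and 13.1%, 25.5% together), and 2 higher and 1 lower in Irg1-/- (13.1% and 14.1%, 27.2% together). Comparisons with the same reference group share its 3 libraries, so their results are not independent. In bulk RNA, fewer cells of a type and less RNA per cell cannot be told apart.

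**Figure D1:**
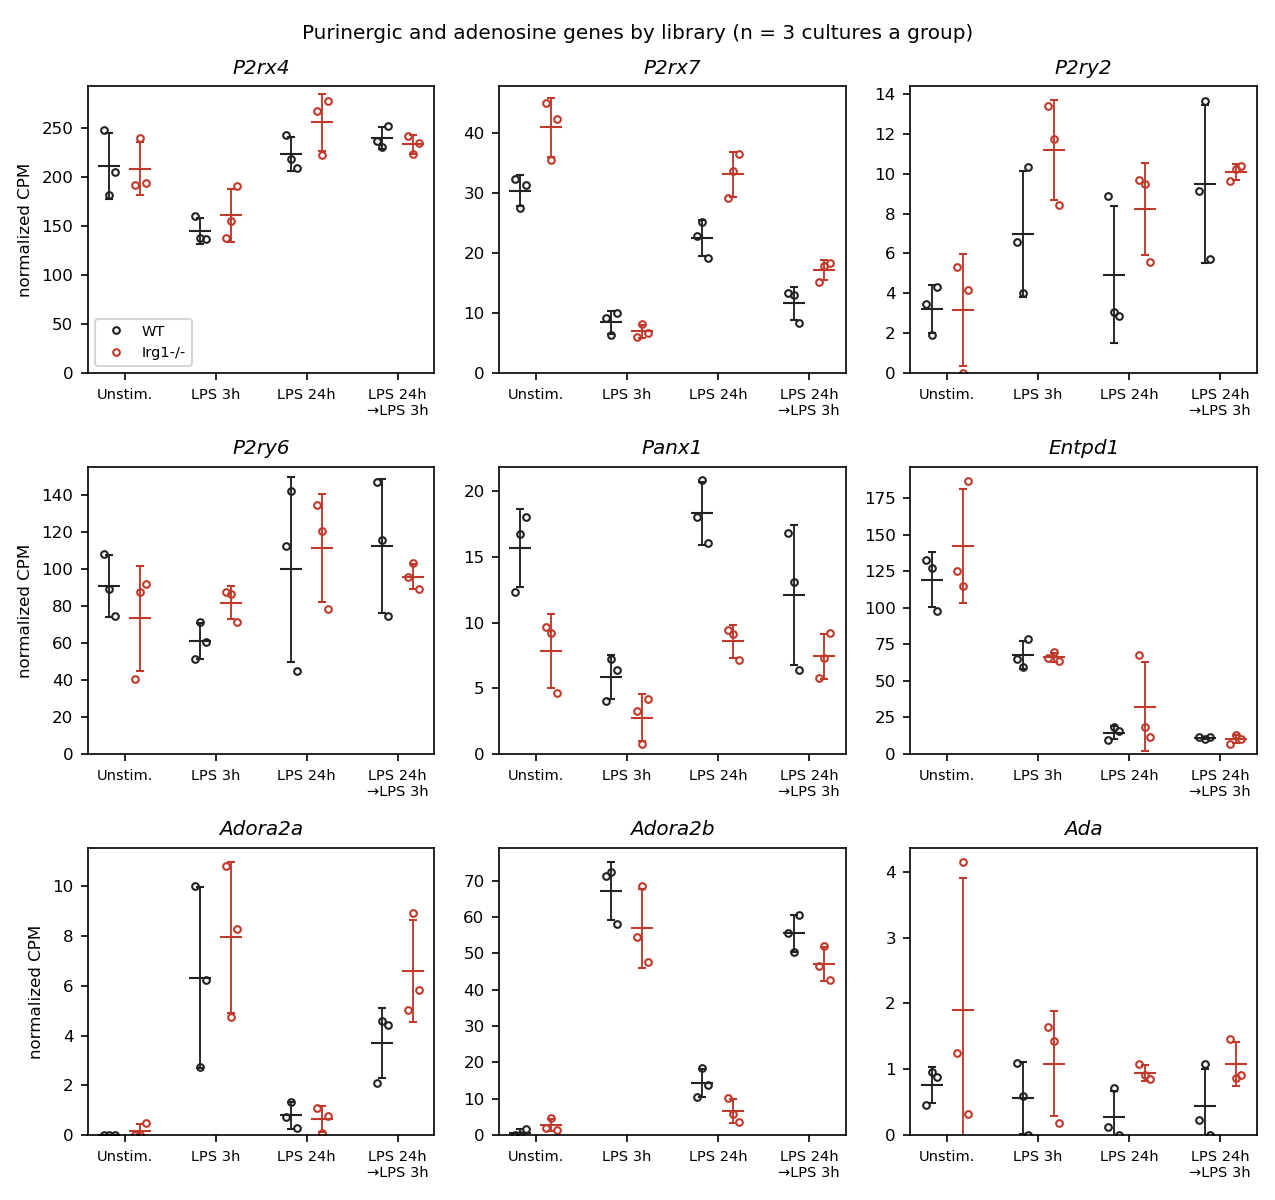
Level of each gene in normalized CPM (vertical axes, from 0, a scale of its own per gene) in the 4 treatments; circles are the 3 cultures of a group, bars the mean ± SD, black WT and red Irg1-/-. Adora2b is at 47.5 to 72.3 CPM after LPS 3h and at 0 to 4.71 CPM in Unstim. cultures, while P2rx7 falls from 27.4 to 44.9 CPM in Unstim. cultures to 5.97 to 9.94 CPM after LPS 3h.

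Of the ATP-gated channels, P2rx7 fell with 3 h of LPS in both genotypes, did not pass the test against Unstim. at 24 h (22.4 against 30.4 CPM in WT and 33.0 against 40.9 in Irg1-/-), and had its next lowest levels when LPS was added anew after 24 h. P2rx4 had group means between 145 and 256 CPM. Both genes were detected in every library.

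P2rx7 was at 32.3, 27.4 and 31.4 CPM in the WT Unstim. cultures, at 9.11, 6.28 and 9.94 after LPS 3h, at 22.9, 25.1 and 19.2 after LPS 24h and at 13.3, 13.1 and 8.40 in the tolerized state. In Irg1-/- cells the values were 44.9, 35.4 and 42.3, then 5.97, 8.10 and 6.68, then 29.1, 33.7 and 36.4, and then 15.2, 17.8 and 18.4 CPM. All LPS 3h cultures were below all Unstim. cultures, and every tolerized culture was below every LPS 24h culture of its genotype. LPS 3h lowered P2rx7 to 27.8% of the Unstim. level in WT (log2 fold change -1.85, SE 0.30, adjusted p = 8.56e-06) and to 16.9% in Irg1-/- (-2.57, SE 0.30, adjusted p = 4.80e-08). These calls held without any 1 of the libraries compared and under all 9 alternative settings. The difference in this response between the genotypes did not pass the test (log2 difference -0.72, SE 0.41, adjusted p = 0.906).

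Against LPS 24h, P2rx7 in the tolerized state changed by -0.95 on the log2 scale in Irg1-/- cells (SE 0.28, adjusted p = 0.0425) and by -0.96 in WT cells (SE 0.29, adjusted p = 0.0533). The Irg1-/- call was lost when any 1 of the 6 libraries was left out (adjusted p from 0.0644 to 0.198) and under 4 of the 9 alternative settings (adjusted p from 0.0504 to 0.156). The WT value passed under 4 of the 9 alternative settings. Against LPS 3h, tolerized cells had more P2rx7 in Irg1-/- (2.47-fold, log2 fold change 1.31, SE 0.30, adjusted p = 0.00116), and in WT the means were 11.6 ± 2.75 and 8.44 ± 1.92 CPM (SD, n = 3), with groups that overlapped. With pool and culture number as terms together the Irg1-/- difference was 1.40 and did not pass (adjusted p = 0.0705). The difference of these 2 changes was 0.85 (SE 0.41, adjusted p = 0.682).

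P2rx4 was at 181 to 247 CPM in WT Unstim. cultures, at 137 to 160 after LPS 3h, at 209 to 242 after LPS 24h and at 231 to 252 in the tolerized state. In Irg1-/- cells it was at 192 to 239, 137 to 190, 222 to 277 and 223 to 242 CPM. The LPS 3h cultures were the lowest in both genotypes without passing the test against Unstim. (log2 fold change -0.54, SE 0.24, adjusted p = 0.0815 in WT, and -0.37, SE 0.24, adjusted p = 0.234 in Irg1-/-). Tolerized WT cells had more P2rx4 than LPS 3h cells (1.66-fold, log2 fold change 0.73, SE 0.24, adjusted p = 0.0243), a call that was lost when any 1 of the 6 libraries was left out (adjusted p from 0.0507 to 0.109). In Irg1-/- cells the same difference was 0.54 (SE 0.24, adjusted p = 0.0938).

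The G protein-coupled nucleotide receptors showed few differences. P2ry2 was low, with 0 to 143 reads per library. Its means in WT were 3.23 ± 1.21 CPM in Unstim., 6.98 ± 3.17 after LPS 3h, 4.93 ± 3.43 after LPS 24h and 9.49 ± 3.97 in the tolerized state, and in Irg1-/- 3.16 ± 2.79, 11.2 ± 2.52, 8.23 ± 2.31 and 10.1 ± 0.400 (SD, n = 3 each).

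P2ry2 rose with LPS 3h in Irg1-/- cells (3.54-fold, log2 fold change 1.78, SE 0.62, adjusted p = 0.0256), where the cultures read 5.30, 0 and 4.18 CPM before and 13.4, 11.8 and 8.44 CPM after. The call was lost without Irg1-/- Unstim. culture 2, which held 0 reads (adjusted p = 0.0622), without Irg1-/- LPS 3h culture 1 (adjusted p = 0.0604) and with the pool as a term (adjusted p = 0.188). In WT the same change was 1.09 (SE 0.61, adjusted p = 0.178), with cultures that overlapped.

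P2ry6 passed in none of the 8 treatment comparisons. Its group means ran from 61.2 ± 9.84 CPM in WT LPS 3h to 112 ± 36.2 CPM in WT tolerized cells, and single cultures of WT LPS 24h spread from 44.7 to 142 CPM. The log2 difference between WT tolerized and WT LPS 3h cells was 0.87 (SE 0.35, adjusted p = 0.0641), with no overlap, and it passed without WT tolerized culture 3 (adjusted p = 0.0383). With the pool as a term, P2ry6 was called lower in WT LPS 3h than in WT Unstim. (log2 fold change -1.03, adjusted p = 0.0318).

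Panx1, the ATP release channel, was lower after LPS 3h in both genotypes. In WT the cultures read 12.3, 16.7 and 18.0 CPM in Unstim., 4.01, 7.23 and 6.36 after LPS 3h, 18.0, 20.8 and 16.0 after LPS 24h and 16.8, 13.1 and 6.38 in the tolerized state. In Irg1-/- the values were 9.66, 9.24 and 4.60, then 3.30, 0.794 and 4.22, then 9.47, 9.11 and 7.14, and then 5.77, 7.32 and 9.19 CPM. LPS 3h cultures were below all Unstim. cultures of their genotype, and LPS 24h cultures overlapped with Unstim. cultures.

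LPS 3h lowered Panx1 to 37.4% of the Unstim. level in WT (log2 fold change -1.41, SE 0.44, adjusted p = 0.0136) and to 35.4% in Irg1-/- (-1.47, SE 0.47, adjusted p = 0.0140). The WT call was lost without Unstim. culture 3 (adjusted p = 0.0533) and without LPS 3h culture 1 (adjusted p = 0.0805). The Irg1-/- call was lost without Unstim. culture 1 (adjusted p = 0.0699), Unstim. culture 2 (adjusted p = 0.0585) or LPS 3h culture 2 (adjusted p = 0.115), which held 5 reads of Panx1, and with the pool as a term (adjusted p = 0.154). Tolerized Irg1-/- cells had more Panx1 than LPS 3h cells (2.68-fold, log2 fold change 1.42, SE 0.46, adjusted p = 0.0213), and in WT the difference was 1.03 (SE 0.44, adjusted p = 0.0841). The Irg1-/- difference was lost with the pool as a term (adjusted p = 0.339) and without LPS 3h culture 2 (adjusted p = 0.137), tolerized culture 2 (adjusted p = 0.0501) or tolerized culture 3 (adjusted p = 0.0826), and the WT difference passed without tolerized culture 3 (adjusted p = 0.0405).

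Entpd1, which encodes the ectonucleotidase CD39, fell with LPS and was lowest in the groups that had received 24 h of LPS. In WT the cultures read 133, 127 and 97.9 CPM in Unstim., 64.7, 59.7 and 78.4 after LPS 3h, 9.50, 18.3 and 15.6 after LPS 24h and 11.4, 10.5 and 11.6 in the tolerized state. In Irg1-/- they read 125, 115 and 187, then 65.6, 69.6 and 63.3, then 67.4, 18.2 and 11.9, and then 7.16, 12.7 and 10.2 CPM. Unstim., LPS 3h and the 24 h groups formed separate levels in WT, and Irg1-/- LPS 24h culture 1, at 67.4 CPM, was the exception to that order.

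LPS 24h lowered Entpd1 to 12.1% of the Unstim. level in WT (log2 fold change -3.04, SE 0.43, adjusted p = 2.45e-06) and to 22.8% in Irg1-/- (-2.14, SE 0.41, adjusted p = 0.000293). Within pool 4, the WT difference was -2.91 (1 culture against 3). That culture, WT LPS 24h culture 3, had the lowest mitochondrial share of all libraries (0.709%, median 2.04%). It also had the highest share of reads counted to no feature (33.7%). Tolerized cells held 16.5% of the LPS 3h level in WT (log2 fold change -2.59, SE 0.42, adjusted p = 2.72e-05) and 15.1% in Irg1-/- (-2.72, SE 0.42, adjusted p = 1.19e-05). None of these 4 calls was lost by leaving out a library, and the Irg1-/- fall at LPS 24h was lost with pool and culture number as terms together (log2 fold change -1.79, adjusted p = 0.105). Without Irg1-/- LPS 24h culture 1 that fall was -3.23 (adjusted p = 2.45e-07), to 10.6% of the Unstim. level.

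In the first 3 h, the fall of Entpd1 passed the test in Irg1-/- (to 46.4%, log2 fold change -1.11, SE 0.40, adjusted p = 0.0295) and not in WT (to 56.7%, -0.82, SE 0.40, adjusted p = 0.116). The Irg1-/- call was kept only without Unstim. culture 2; leaving out Unstim. culture 1 or 3 or LPS 3h culture 1, 2 or 3 gave adjusted p of 0.0502, 0.150, 0.0889, 0.0821 and 0.0963, and the pool as a term gave 0.399. From LPS 24h to the tolerized state, Entpd1 fell further in Irg1-/- (log2 fold change -1.70, SE 0.41, adjusted p = 0.00891), with overlapping cultures. Without LPS 24h culture 1 this change was -0.58 (adjusted p = 0.514), and without tolerized culture 1 it was -1.45 (adjusted p = 0.0931).

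Markers of other cells were also lower in the groups that had received 24 h of LPS. The summed level of 7 neutrophil markers, led by Ngp, was 72.5 to 137 CPM in Unstim. and LPS 3h libraries and 1.05 to 8.77 CPM in LPS 24h and tolerized libraries, and none of the 7 was at 0 in every library. The sum of 5 fibroblast markers, led by Col1a2, was 263 to 434 CPM in the former and 103 to 246 CPM in the latter. Between Unstim. and LPS 3h the ranges of both sums overlapped in each genotype. Both ends of the range were higher after LPS 3h for fibroblast markers and lower for neutrophil markers. Fibroblast sums were 263 to 346 and then 313 to 421 CPM in WT, and 271 to 341 and then 292 to 434 in Irg1-/-. Neutrophil sums were 114 to 128 and then 72.5 to 119 CPM in WT, and 91.4 to 137 and then 79.1 to 105 in Irg1-/-. In Irg1-/- LPS 24h neutrophil markers summed to 3.74 to 6.56 CPM and fibroblast markers to 166 to 192 CPM. The part of these cells in the result was not tested.

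The adenosine receptors gave the largest rises among the 9 genes. Adora2b and Adora2a were near 0 in Unstim. cells, were high 3 h after LPS, were low again at 24 h and were high 3 h after the second LPS. This order was the same in both genotypes. Adora2b reached 72.3 CPM, and Adora2a 10.8 CPM.

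Adora2b was at 0, 0 and 1.71 CPM in WT Unstim. cultures (0, 0 and 35 reads), at 71.3, 72.3 and 58.0 after LPS 3h, at 10.6, 18.5 and 13.8 after LPS 24h and at 55.5, 50.4 and 60.5 in the tolerized state. In Irg1-/- it was at 2.03, 4.71 and 1.45, then 54.4, 68.6 and 47.5, then 10.1, 5.89 and 3.53, and then 46.4, 51.9 and 42.7 CPM. No LPS 3h or tolerized culture overlapped with an Unstim. or LPS 24h culture.

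LPS 3h raised Adora2b 118-fold in WT (log2 fold change 6.64, SE 0.68, adjusted p = 2.71e-09) and 20.8-fold in Irg1-/- (4.47, SE 0.62, adjusted p = 8.17e-07). The WT folds rest on culture 3 of Unstim.: with only the other 2 cultures, both at 0 reads, and a floor of 3 reads per library, Adora2b was at least 280.2-fold higher after LPS 3h and at least 59.7-fold higher after LPS 24h. Without Irg1-/- Unstim. culture 2, the highest of its group, the Irg1-/- log2 fold change at 3 h was 5.13 (adjusted p = 3.43e-06). LPS 24h left Adora2b 25.2-fold above Unstim. in WT (log2 fold change 4.42, SE 0.64, adjusted p = 3.98e-06), and in Irg1-/- the change was 1.34 (SE 0.59, adjusted p = 0.140), with overlapping cultures. It passed in Irg1-/- with no filter on low counts (adjusted p = 0.0109).

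From LPS 24h to the tolerized state Adora2b rose 3.87-fold in WT (log2 fold change 1.95, SE 0.53, adjusted p = 0.0310) and 7.23-fold in Irg1-/- (2.86, SE 0.55, adjusted p = 0.000919). The WT call held only when tolerized culture 2 was the library left out; without each of the other 5 libraries the adjusted p was between 0.0532 and 0.0943, at log2 fold changes of 1.79 to 2.20. Tolerized cells held 82.5% of the LPS 3h level of Adora2b in WT and 82.7% in Irg1-/-, neither past the test (95% intervals of the log2 difference -1.28 to 0.72 and -1.27 to 0.73). Within pools 1, 2 and 4, the WT rise after the second LPS was 2.37, 1.44 and 2.11 on the log2 scale.

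Adora2a held 0 reads in the 3 WT Unstim. cultures and 0, 0 and 9 reads in the Irg1-/- ones. In WT it was at 10.02, 2.73 and 6.23 CPM after LPS 3h, at 0.730, 1.34 and 0.287 after LPS 24h and at 2.08, 4.58 and 4.44 in the tolerized state. In Irg1-/- the values were 0, 0 and 0.482, then 10.8, 4.76 and 8.27, then 1.08, 0.0701 and 0.765, and then 5.04, 8.92 and 5.85 CPM.

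The groups to which LPS had been added 3 h before harvest stood above the other groups of their genotype for Adora2a, without overlap. Against a floor of 3 reads per library, Adora2a was at least 30.3-fold higher after LPS 3h than in Unstim. in WT (adjusted p = 1.63e-06) and at least 3.77-fold higher after LPS 24h (adjusted p = 0.00175). The WT LPS 24h cultures held 6, 15 and 3 reads, the last at that floor. With only the groups of that LPS 24h comparison fitted, Adora2a did not pass the filter on low counts. In Irg1-/- it rose 49.5-fold with LPS 3h (95% interval of the log2 fold change 3.19 to 6.81, adjusted p = 8.24e-05), from a group that held 9 reads in all. Those 9 reads were all in Unstim. culture 3, and against the floor in the other 2 cultures Adora2a was at least 15.4-fold higher. From LPS 24h to the tolerized state Adora2a rose 10.3-fold in Irg1-/- (log2 fold change 3.33, SE 0.80, adjusted p = 0.00861), a call lost without LPS 24h culture 2, which held 1 read (adjusted p = 0.0582). In WT the change was 2.21 (SE 0.79, adjusted p = 0.123), which DESeq2's Wald test called (adjusted p = 0.0458).

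Ada, whose product removes adenosine, was at the limit of detection, with 0 to 22 reads per library and group means of 0.279 to 1.90 CPM. No treatment comparison passed for it, and with 95% intervals on the log2 scale such as -3.03 to 2.10 for WT LPS 3h against Unstim., a change of several fold was not detectable at this depth. With the pool as a term, Ada was called lower in WT after LPS 3h (adjusted p = 0.0347) and after LPS 24h (adjusted p = 0.0207), where the pool 4 libraries with LPS held 0 reads.

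**Figure D2:**
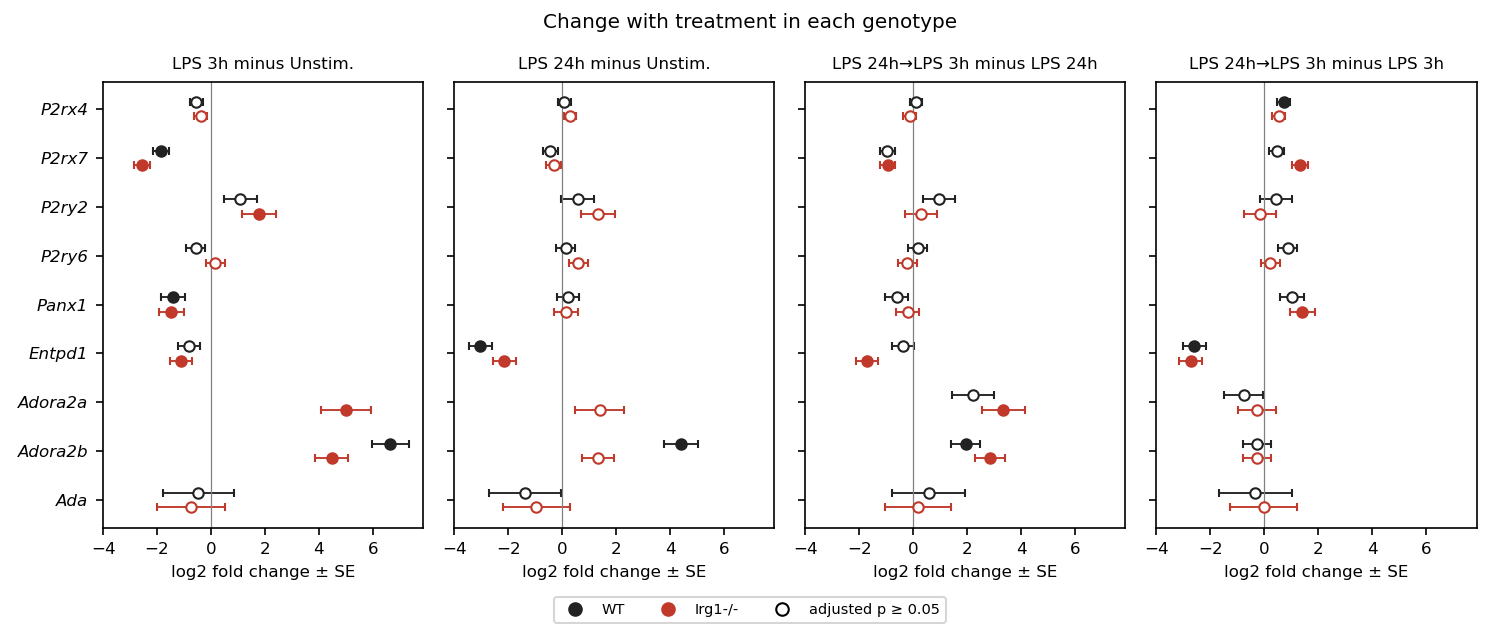
Log2 fold change ± SE (horizontal axis) of each gene in the 4 treatment comparisons named above the panels, black WT and red Irg1-/-, with filled points past an adjusted p of 0.05; Adora2a against WT Unstim. is not drawn because that group held 0 reads. Adora2b lies at 6.64 and 4.47 after LPS 3h, and Entpd1 at -3.04 and -2.14 after LPS 24h.

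Irg1-/- was compared with WT within each treatment, which with LPS asks whether loss of itaconate synthesis goes with another level of these genes. In Unstim. libraries Acod1 was at 5.82 to 11.9 CPM in both genotypes, so there only the genotypes are compared. With LPS, genotype and pool were partly mixed, here and in the tests of whether LPS acted differently. Irg1-/- LPS 24h cultures were all in pool 1 and Irg1-/- LPS 3h cultures in pools 2 and 3. WT cultures with LPS were in pools 1, 2 and 4. In edgeR's test 0 of the 9 genes passed in any of the 4 treatments. The share of all genes called was 0.0421% in Unstim., 0.00842% after LPS 3h, 0.598% after LPS 24h and 0.118% in the tolerized state. At an unadjusted p under 0.05 there were 3 members in Unstim. (Panx1, Adora2a and Adora2b; 5.2% of all genes), 1 after LPS 3h (Panx1; 5.84%), 3 after LPS 24h (Panx1, Entpd1 and Adora2b; 10.1%) and 0 in the tolerized state (7.88%). DESeq2's Wald test also called 0 in each treatment.

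Panx1 was lower in Irg1-/- cells in each treatment by its mean. The log2 differences were -1.02 in Unstim. (SE 0.43, adjusted p = 0.833), -1.09 after LPS 3h (SE 0.47, adjusted p = 0.782), -1.09 after LPS 24h (SE 0.43, adjusted p = 0.328) and -0.70 in the tolerized state (SE 0.43, adjusted p = 0.761). The cultures did not overlap in Unstim. and after LPS 24h, and overlapped in the other 2 treatments. The share of all genes that lay lower in Irg1-/- without overlap is not given here. In the upward direction it was 4.34% in Unstim. and 7.51% after LPS 24h. Within pools, the 5 differences that could be formed were between -1.15 and -1.02. The Unstim. difference used the same 3 against 3 cultures as above. The others set 1 to 3 Irg1-/- cultures against 1 WT culture each. The WT cultures with LPS in pool 4 did not enter. They read 6.36 CPM after LPS 3h, 16.0 after LPS 24h and 6.38 in the tolerized state.

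A comparison of the genotypes over the mean of the 4 treatments was added after these values had been seen. Panx1 was then at 51.2% of the WT level (log2 fold change -0.97, SE 0.22, adjusted p = 0.0430), where 0.303% of all genes were called and no other member was. It was lost with the pool as a term and with pool and culture number together (highest adjusted p 0.266), and without 20 of the 24 libraries in turn (log2 fold change from -1.06 to -0.86, highest adjusted p 0.113). With the pool as a term, alone or with culture number, the log2 fold change was -1.02. The call stayed without WT LPS 3h culture 1, WT tolerized culture 3, Irg1-/- Unstim. culture 1 or Irg1-/- LPS 3h culture 3.

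P2rx7 was higher in every Irg1-/- culture than in every WT culture of the same treatment in Unstim., LPS 24h and tolerized cells, and none of these differences passed the test. They were 0.43 (SE 0.28, adjusted p = 1.000), 0.56 (SE 0.28, adjusted p = 0.516) and 0.57 (SE 0.28, adjusted p = 0.656). Over all genes tested, Irg1-/- lay above WT without overlap in 4.34%, 7.51% and 6.45% of genes in these treatments.

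Entpd1 after LPS 24h was 2.25-fold higher in Irg1-/- by its mean (log2 difference 1.16, SE 0.40, adjusted p = 0.239), which came with the single culture at 67.4 CPM. Without that culture the difference was 0.08 (adjusted p = 0.994), and with no filter on low counts 1.17 was called (adjusted p = 0.0490). Adora2b was at 0.569 ± 0.985 CPM in WT Unstim. and 2.73 ± 1.74 in Irg1-/- Unstim. cells (log2 difference 1.93, SE 0.67, adjusted p = 0.552), and at 14.3 ± 3.97 and 6.50 ± 3.32 CPM after LPS 24h (-1.15, SE 0.53, adjusted p = 0.457). Without WT Unstim. culture 3, the only one of that group with Adora2b reads, the Unstim. difference was called (adjusted p = 0.000605), at least 11.4-fold against the floor of 3 reads per library. The WT reading in unstimulated cells thus rested on 35 reads of 1 library.

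Whether LPS acted differently in the genotypes was tested directly. Of the 9 genes, 0 differed in edgeR's test for LPS 3h against Unstim. (0.00842% of all genes), LPS 24h against Unstim. (0.21%), the tolerized state against LPS 24h (0.00842%) or the tolerized state against LPS 3h (0%). At an unadjusted p under 0.05 there were 2, 2, 1 and 1 of the 9, where 5.68%, 8.14%, 8.66% and 7.23% of all genes were under it. Adora2b had the lowest adjusted p of the 9 for LPS 24h against Unstim. (log2 difference -3.08, SE 0.85, adjusted p = 0.173), and there DESeq2's Wald test (adjusted p = 0.00917) and the fit with no filter on low counts (adjusted p = 0.000161) called it, as did the fit without WT Unstim. culture 3 (adjusted p = 3.95e-05). Without that culture the difference for LPS 3h against Unstim. was called too (adjusted p = 0.000902), against -2.17 (SE 0.84, adjusted p = 0.788) with it. For Entpd1 the change from LPS 24h to the tolerized state differed by -1.32 (SE 0.57, adjusted p = 0.497), and without Irg1-/- LPS 24h culture 1 by -0.23 (adjusted p = 1.000).

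**Figure D3:**
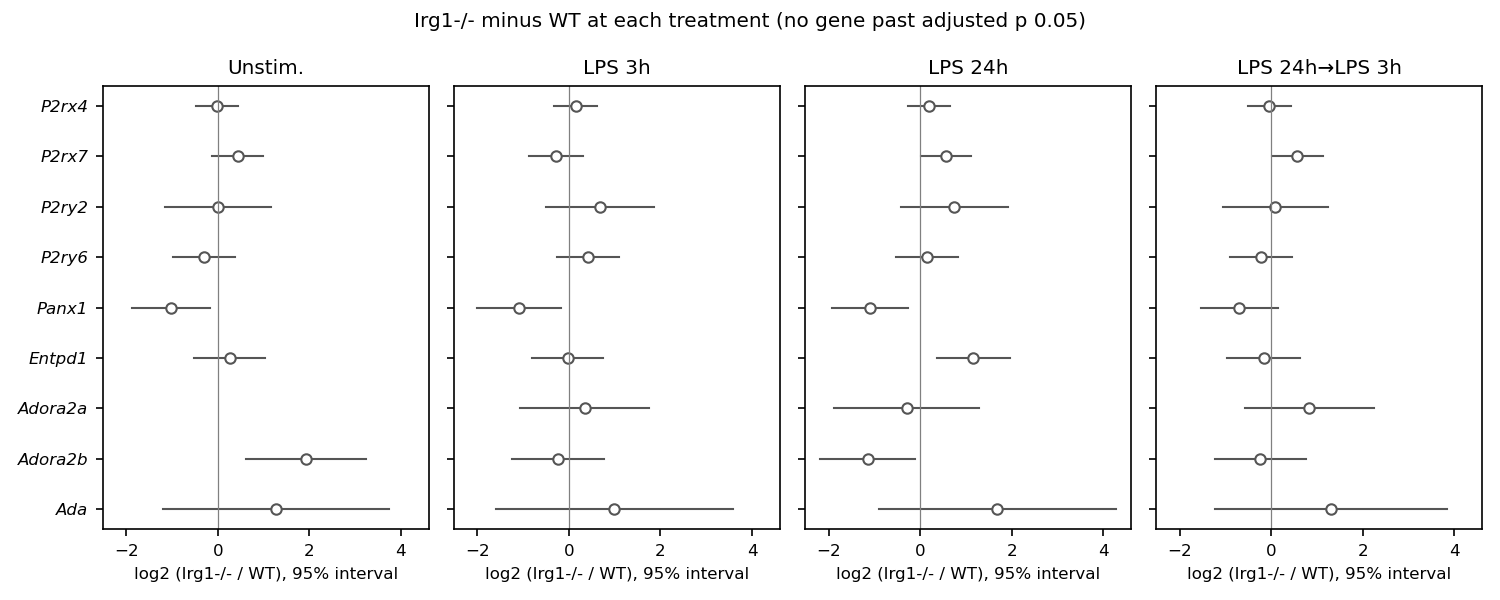
Log2 difference between Irg1-/- and WT (horizontal axis) of each gene in the 4 treatments, with 95% intervals; open points did not pass an adjusted p of 0.05, and Adora2a in Unstim. is not drawn because WT held 0 reads. Panx1 lies at -1.02, -1.09, -1.09 and -0.70.

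Other genes of the pathway were taken from 6 lists of 76 genes in all, of which 75 were in the table and 56 were tested. After LPS 3h, 14 were higher and 7 lower in WT, and 14 higher and 11 lower in Irg1-/-. At LPS 24h the counts were 13 higher and 4 lower in WT, and 10 and 5 in Irg1-/-. From LPS 24h to the tolerized state they were 4 higher and 2 lower in WT, and 5 and 1 in Irg1-/-. From LPS 3h to the tolerized state they were 7 higher and 8 lower in WT, and 6 and 12 in Irg1-/-. The share of the 56 called at LPS 3h was 37.5% in WT and 44.6% in Irg1-/-, against 32% and 35.9% of all genes. At LPS 24h it was 30.4% and 26.8%, against 16.2% and 13.7%. It was 10.7% in both genotypes from LPS 24h to the tolerized state, against 3.99% and 5.14%. From LPS 3h to the tolerized state it was 26.8% and 32.1%, against 25.5% and 27.2%.

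The list genes named below as risen or fallen gave 74 calls in the treatment comparisons. Of these, 39 held in every fit that left out 1 library and under all alternative settings, 32 were lost without some library and 16 with the pool as a term, 12 of them in Irg1-/- cells. Those lost without 4 or more of the 6 libraries compared were P2ry1 and Slc29a3 (WT) and Slc29a2, Prkar2b and Pde4d (Irg1-/-) at LPS 3h, Adora3 in both genotypes, Nt5c2 (WT), and P2ry1 and Pde4a (Irg1-/-) at LPS 24h, and Dck and Prkar2b (WT) and Adcy9 (Irg1-/-) after the second LPS. Entpd6 and Slc29a3 at LPS 3h were also lost with the pool as a term in both genotypes, as were Gja1, Slc17a9, P2ry12 and Hprt in Irg1-/- and Xdh after the second LPS in WT.

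Among the other nucleotide receptors, 4 of 11 were tested. P2ry14, a receptor for UDP-glucose, rose with LPS 3h from 8.60 to 56.1 CPM in WT (adjusted p = 7.85e-08) and from 10.2 to 59.6 in Irg1-/- (adjusted p = 2.73e-07). P2ry1, an ADP receptor, fell from 2.53 to 0.158 CPM in WT and from 2.89 to 0 in Irg1-/- at 3 h, and to 0.172 CPM at LPS 24h in Irg1-/-. P2ry12, also an ADP receptor, fell at 3 h in Irg1-/-, from 2.98 to 0.489 CPM.

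Of 7 genes for release channels and vesicular loading, 5 were tested. Lrrc8c, a subunit of volume-regulated anion channels, rose with LPS 3h from 8.69 to 80.5 CPM in WT and from 10.8 to 54.5 in Irg1-/-. Gja1 (connexin 43) rose from 2.27 to 21.1 and from 6.51 to 29.3 CPM. Slc17a9, the vesicular nucleotide transporter, fell from 5.62 to 0.649 and from 3.83 to 0.521 CPM. At LPS 24h Lrrc8c (24.3 CPM) and Gja1 (10.5 CPM) were above Unstim. in WT, and from LPS 24h to the tolerized state Lrrc8c rose from 14.9 to 47.0 CPM and Lrrc8d from 28.2 to 78.1 CPM in Irg1-/-.

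Of 16 other ectoenzymes, 9 were tested. Cd38, which cleaves NAD, was at 0.813 CPM in WT Unstim., 35.1 after LPS 3h and 243 after LPS 24h, and at 1.5, 26.4 and 231 in Irg1-/-. Bst1, a related enzyme, rose from 7.83 to 366 CPM in WT and from 5.88 to 245 in Irg1-/- at LPS 24h, and Enpp4 from 2.03 to 78.6 and from 3.72 to 70.4 CPM at LPS 3h. Entpd6 fell at 3 h from 5.50 to 0.897 CPM in WT and from 5.47 to 0.915 in Irg1-/-, and Entpd5 from 11.8 to 4.49 in WT. At LPS 24h, 4 ectoenzymes were higher in WT (44.4% of those tested, against 9.25% of all genes) and 3 in Irg1-/- (33.3%, against 7.31%). In both genotypes 0 were lower, beside the fall of Entpd1. Over the other lists, the share called at LPS 24h in WT ran from 0% (nucleotide receptors) to 80% (adenosine receptors and transporters). In Irg1-/- it ran from 0% (release channels) to 60% (adenosine receptors and transporters). The shares of all genes called in either direction were 16.2% and 13.7%.

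Of 7 other adenosine receptors and transporters, 5 were tested. Slc28a2, which carries nucleosides into cells, rose at 3 h from 2.54 to 45.6 CPM in WT and from 3.47 to 63.9 in Irg1-/-, and was at 44.1 and 26.7 CPM at LPS 24h. Adora3, the A3 receptor, rose at LPS 24h from 0.345 to 2.77 CPM in WT and from 0.509 to 4.80 in Irg1-/-. The equilibrative transporter Slc29a1 fell at LPS 24h from 23.8 to 10.7 CPM in WT and from 26.1 to 9.73 in Irg1-/-. At 3 h Slc29a3 fell from 76.9 to 37.8 and from 109 to 40.3 CPM, and Slc29a2 from 0.868 to 0 CPM in Irg1-/-.

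For the handling of purines inside the cell, 14 of 16 genes were tested. The nucleotidase gene Nt5c3 rose at 3 h from 10.6 to 258 CPM in WT and from 11.1 to 256 in Irg1-/-, while Nt5c2 fell from 25.1 to 7.62 in WT. Dck, deoxycytidine kinase, rose at LPS 24h from 17.2 to 88.6 CPM in WT and from 17.9 to 43.6 in Irg1-/-, and fell to 39.8 in WT after the second LPS. Hprt, of purine salvage, fell in Irg1-/- from 110.3 CPM in Unstim. to 57.0 at 3 h and 46.9 at LPS 24h, and Nt5c2 fell to 12.3 CPM at LPS 24h in WT. The AMP deaminase gene Ampd3 rose after the second LPS from 98.1 to 235 CPM in WT and from 82.8 to 204 in Irg1-/-, and Xdh, xanthine dehydrogenase, from 58.6 to 128 in WT. Pnp2, a purine nucleoside phosphorylase gene, was at 0 CPM in WT Unstim. and 12.0 after LPS 3h, and it lies inside the locus of Pnp (not analysed here), so its reads are uncertain.

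Of the 19 genes of the cyclic AMP arm, through which the receptors of Adora2a and Adora2b act, all were tested. After LPS 3h, 3 were called in WT (15.8%, against 32% of all genes) and 6 in Irg1-/- (31.6%, against 35.9% of all genes). Pde4b, a phosphodiesterase that degrades cyclic AMP, rose from 45.7 to 1187 CPM in WT and from 47.2 to 1273 in Irg1-/-, was at 131 and 139 at LPS 24h and rose to 311 and 427 after the second LPS. Adcy9, an adenylyl cyclase, fell at 3 h from 44.1 to 9.35 and from 43.9 to 11.5 CPM, was at 16.4 at LPS 24h in WT, and fell from 24.5 to 10.03 after the second LPS in Irg1-/-. Prkar2b, a regulatory subunit of protein kinase A, rose at 3 h from 52.3 to 95.1 and from 45.1 to 76.5 CPM, and after the second LPS from 57.1 to 114 and from 99.8 to 248. Adcy7 fell at LPS 24h from 69.5 to 25.2 CPM in WT, and Adcy3 from 8.06 to 0.998 in Irg1-/-. Pde4a fell at LPS 24h from 27.1 to 11.3 CPM in Irg1-/- and after the second LPS from 20.3 to 5.28 in WT, and Pde4d at 3 h from 3.78 to 0.711 in Irg1-/-.

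**Figure D4:**
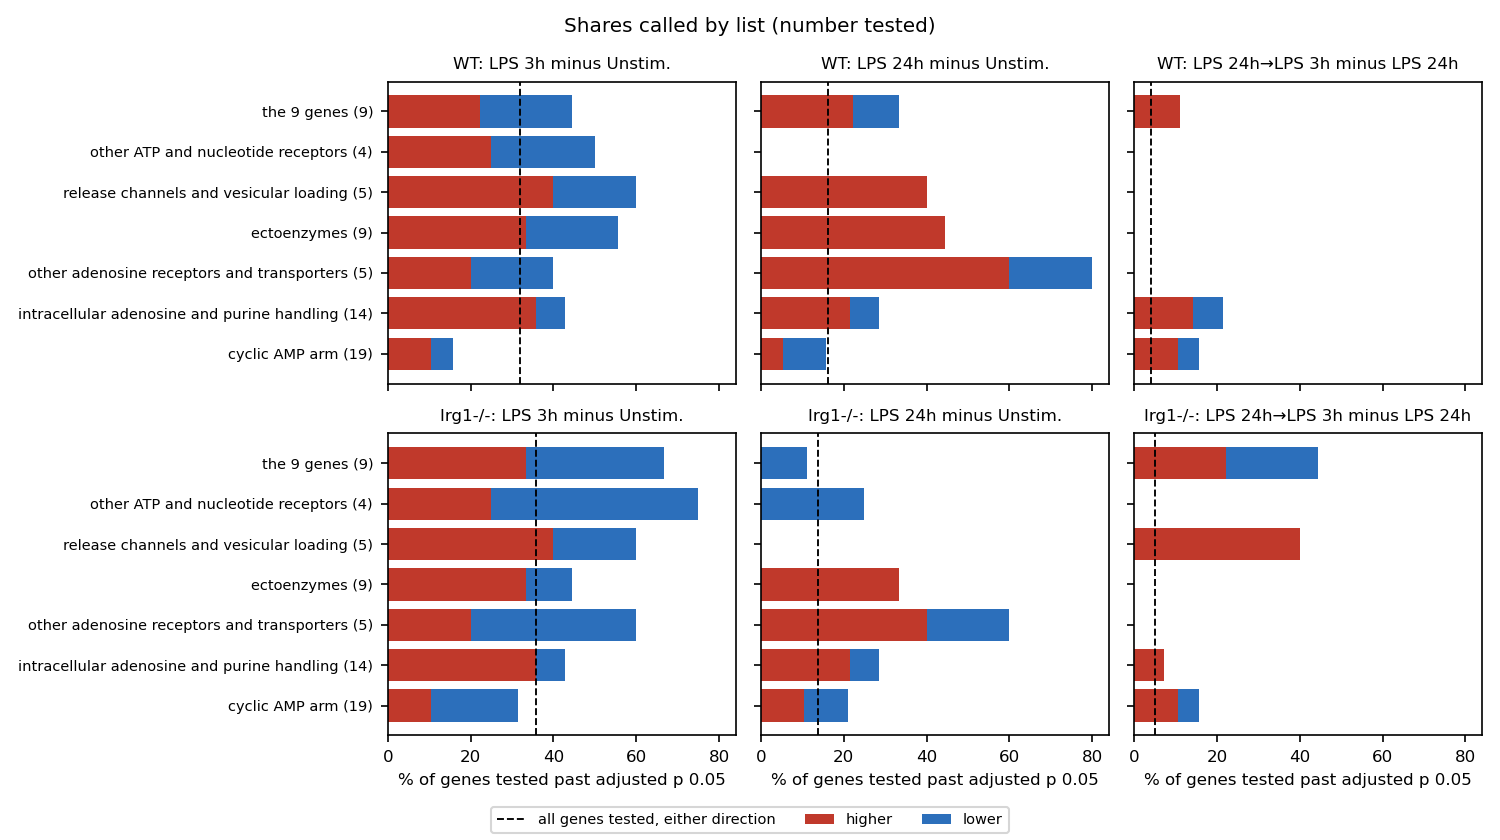
Share of the tested genes of each list past an adjusted p of 0.05 (horizontal axis, percent), higher in red and lower in blue, in 3 treatment comparisons of WT (top) and Irg1-/- (bottom); the number tested follows each list's name and the dashed line is the share of all genes tested. At LPS 24h in WT, 4 of 9 ectoenzymes were higher and 0 lower, and the line lies at 16.2%. Of the other adenosine receptors and transporters, 3 of 5 were higher and 1 lower there, and of the other nucleotide receptors 0 of 4 were called.

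Between genotypes, the lists held 1 called gene, Pnp2 in Unstim. (0 CPM in WT and 0.680 ± 0.798 in Irg1-/-, adjusted p = 0.0365), whose cultures overlapped. The call was kept without Irg1-/- Unstim. culture 2 (adjusted p = 0.00619) and lost without each of the other 5 libraries (adjusted p from 0.0743 to 0.212). It was also lost with culture number as a block (adjusted p = 0.0569), with the pool as a term (adjusted p = 0.0730) and with both (adjusted p = 0.0944). With only the groups compared, 0 genes were called in this comparison.

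The profile of each gene over the 24 libraries was set against those of all genes tested with a mean of at least 10 reads, as Pearson's r of log2 CPM. These values describe libraries that share treatments and pools. Adora2b was most like Slc7a8, Traf1 and Vasp (r = 0.944, 0.944 and 0.937), and Adora2a was most like Bcl2a1a, Il1a and Cxcl2 (0.940, 0.936 and 0.935). P2rx7 was most like Cerk, Gpr65 and Sash3 (0.949, 0.948 and 0.945), and Entpd1 was most like Sulf2, Ogn and the neutrophil marker Ltf (0.915, 0.913 and 0.913). For Panx1 they were Prokr1, Cars2 and Slc25a45 (0.880, 0.840 and 0.828), and for P2rx4 Tmem104, Tmem218 and Neu1 (0.898, 0.892 and 0.881).

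P2ry2, P2ry6 and Ada had less close neighbours. P2ry2 was most like Atg4d, Ddx49 and Pilrb2 (0.878, 0.823 and 0.808), P2ry6 was most like Mrps9, Snapc5 and Zfp68 (0.819, 0.810 and 0.776), and Ada was most like Tmem205, H2afj and Prune2 (0.774, 0.762 and 0.740). Among the 9 genes themselves, Adora2a and Adora2b were the closest pair (r = 0.867), and P2rx7 ran opposite to both (r = -0.816 with Adora2a and -0.773 with Adora2b).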

How the data were processed

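RNA of BMDMs was primed with barcoded oligo-dT at the 3′ end, pooled, amplified by PCR without molecular identifiers and sequenced. The authors aligned reads to mm10 with STAR and deposited counts of reads per gene, as whole numbers without normalization; the counting program, annotation and strand setting are not given in the sources used here. The 5 summary lines were left out; of each column's total, 22.1% to 33.7% was counted to no feature. PCR copies count as separate reads, so floors (3 counts) cover counting error only.

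Levels are CPM with library sizes scaled by TMM factors. Genes were kept by filterByExpr, and differences were tested in 1 model of 8 groups with edgeR 4.0.16 (quasi-likelihood, R 4.3.3, default prior count). SE is the size of the log2 fold change divided by the square root of F. Within-pool differences and correlations used log2 CPM with a prior count of 2. Within-pool differences are of mean log2 CPM, so they are another measure than the fitted log2 fold changes. Alternatives were DESeq2 1.42.0 (size factors, Wald test), TMM without the 20 most counted genes, only the groups compared, other filters (none, or a mean count of 10 or more), culture number as a block, pool as a term, both, and each library left out. The procedure was tested on simulated data.

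The 9 members, the lists and the tests were chosen with earlier results of these data known. Named list genes are the called genes with up to 2 highest and 2 lowest log2 fold changes per list in LPS 3h or LPS 24h against Unstim. and the tolerized state against LPS 24h, every called gene between genotypes, and for each member the 3 most like it. Figures were drawn with matplotlib 3.10.9.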

Additional observations from a re-analysis of the deposited data

Results flagged for a closer look

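Pnp2, a purine nucleoside phosphorylase gene of the lists beside the 9 members, changed differently in the genotypes from Unstim. to LPS 24h in the test of the interaction (edgeR's quasi-likelihood test, adjusted p = 0.0125, 3 cultures a group). Its level was 0 CPM in the 3 WT Unstim. cultures, 0.680 ± 0.798 CPM in Irg1-/- Unstim. (19 reads in all), 6.68 ± 0.559 in WT LPS 24h and 4.28 ± 0.963 in Irg1-/- LPS 24h. Because WT Unstim. held 0 reads, the fitted size of the difference depends on the default prior count of the fit and is not given. The difference was lost without WT Unstim. culture 1 (adjusted p = 0.0587) or culture 3 (adjusted p = 0.0689), without Irg1-/- Unstim. culture 1 (adjusted p = 0.0594), with pool and culture number as terms together (adjusted p = 0.0539) and with only the groups compared (adjusted p = 0.188). Pnp2 (chr14:50955992-50964749) lies within the locus of Pnp on the same strand, and the part of shared reads was not tested.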

How the results depend on the processing

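No called or named log2 fold change changed sign under the alternatives run. The count of the 9 genes called moved by more than 1.5 times as follows. For the tolerized state against LPS 24h in WT (1 called) it was 3 with DESeq2's Wald test, 2 with a mean of at least 10 counts, 2 with the replicate block, 2 with the pool as a term and 0 with pool and replicate block. With pool and replicate block it was also 3 for LPS 3h against Unstim. in Irg1-/- (6 called; 3 with the pool alone), 0 for LPS 24h against Unstim. in Irg1-/- (1 called), 1 for the tolerized state against LPS 3h in Irg1-/- (3 called) and 0 for the genotypes over the mean of the 4 treatments (1 called; 0 with the pool alone). Only the groups compared gave 1 for the tolerized state against LPS 3h in WT (2 called). With no filter on low counts 2 were called for LPS 24h against Unstim. in Irg1-/- (1 called), 1 each between genotypes in Unstim. and LPS 24h (0 called) and 1 for the genotype difference in LPS 24h against Unstim. (0 called), where DESeq2 also gave 1. Leaving out 1 library at a time gave 0 to 1 for the tolerized state against LPS 24h in WT and 1 to 3 against LPS 3h. In Irg1-/- it gave 2 to 3 for the tolerized state against LPS 24h. It gave 0 to 1 for the genotypes in Unstim. and over the mean. For the genotype differences in LPS 3h and LPS 24h against Unstim. it gave 0 to 1. Smaller moves, not above 1.5 times, were 4 to 5 for LPS 3h against Unstim. in Irg1-/- (6 called). The tolerized state against LPS 3h in Irg1-/- (3 called) likewise gave 2 to 3. Whether culture numbers pair the samples was not settled. Same-number deviations correlated at -0.11 to 0.34 (median 0.018, over 0.1 in 16 of 84 pairs). Those of other numbers correlated at -0.30 to 0.20 (median -0.010, over 0.1 in 13 of 168 pairs). In all, 11 of 24 libraries were closest to their own number. The replicate block added P2rx7 for the tolerized state against LPS 24h in WT and changed no other call of the 9 genes. DESeq2's size factors shifted the median of all genes by at most 0.11 (log2, lower, for the tolerized state against LPS 3h in Irg1-/-). The cause of these moves was not tested. Depth limits Ada, P2ry2 and Adora2a, with at most 22, 143 and 123 reads in a library. Tests rest on 3 cultures a group, and an exact permutation test of 3 against 3 cannot go below 0.1.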
